A study of Mus musculus with 12 samples.

Results

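Intratumoral CD8+ cells that carry asialo-GM1 (asGM1) on their surface were compared between Flt3L Panc02 tumours and Panc02 tumours. Panc02 is a mouse pancreatic cancer cell line, and the Flt3L Panc02 tumours express Flt3 ligand. All libraries whose labels give the asGM1-positive gate were taken: 3 from Panc02 tumours and 3 from Flt3L Panc02 tumours, which are 6 of the 12 libraries of the series. The other 6 libraries hold asGM1-negative cells from the same tumour types, 3 each, and share no library with this comparison. All 12 libraries come from C57BL/6J mice labelled wild type. The cells of the comparison were sorted as DAPI-, CD45.2+, CD8+ and asGM+, which names no T cell receptor marker. The labels do not give age, tumour site or time after implantation. Nor do they say whether the 3 libraries of a group are separate animals or tumours, so p-values measure only the spread between these libraries, which may be technical.

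Flt3 ligand is the growth factor that binds the receptor Flt3 and drives the development and expansion of dendritic cells, the cells that present antigen to T cells. CD8+ T cells that meet antigen in a tumour pass from a naive or stem-like state, marked by the transcription factor gene Tcf7 and the homing receptor gene Ccr7, to effector states that make granzymes, and under lasting stimulation to an exhausted state with inhibitory receptors. Asialo-GM1 is a sugar-bearing lipid (a glycosphingolipid without sialic acid) found on mouse NK cells and on activated CD8+ T cells.

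The deposited values are whole-number estimated counts that sum to between 100386020 and 102896605 in the 6 libraries, and levels are given here as CPM, the count scaled to the library's total. Spearman correlations over genes were 0.973 to 0.981 within the 2 asGM1-positive groups and 0.954 to 0.978 between them. Of 56980 genes in the table, 20411 passed the filter on low counts. With edgeR's quasi-likelihood test on all 12 libraries and Benjamini-Hochberg adjustment, 1276 of these (6.25%) differed at an adjusted p under 0.05: 418 rose (2.05%) and 858 fell (4.2%) in Flt3L Panc02 tumours. A gene past that threshold is written below as having risen or fallen. The median log2 fold change of all genes tested was -0.033. The groups did not overlap for 416 of the genes that rose and 842 of those that fell, where 14.2% of all genes tested lay wholly higher and 16.5% wholly lower.

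These calls rest on a spread estimated over 4 groups. A fit to the 6 libraries alone called 1 gene, Cd7, with 4515 genes at an unadjusted p under 0.05 and 1604 at an adjusted p under 0.1. Without Panc02 library 1 the count over all genes was 414 and without library 2 it was 305, while without Flt3L Panc02 library 2 it was 215 and without library 3 it was 263. Without Panc02 libraries 1 and 2 together it was 19. Of 115 genes named by a rule and called, 41 kept the call whichever of the 6 libraries was left out. DESeq2 called 2979 genes and limma-voom called 3120.

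Panc02 libraries 1 and 2 stood apart in RNA of other cell types. The summed level of 30 macrophage and monocyte genes was 6972, 5260 and 3561 CPM in Panc02 libraries 1, 2 and 3 and 3370, 3267 and 4066 CPM in the Flt3L Panc02 libraries. That sum includes Ly6c2, also a CD8+ T cell gene, at 715, 1146 and 1078 CPM against 1187, 1065 and 1705 CPM. The 11 MHC class II genes summed to 6099, 4564 and 1930 CPM against 1664, 1738 and 2028 CPM. Panc02 library 3 lay inside the Flt3L Panc02 range on both sums, while libraries 1 and 2 lay above it.

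The label of the cells held against its markers. Cd8a was present at 1673, 1732 and 1957 CPM in the Panc02 libraries and 2276, 2316 and 2562 CPM in the Flt3L Panc02 libraries, with a log2 fold change of 0.42 ± 0.13 that was not called (adjusted p = 0.0812, edgeR). Here and below ± is the standard error of the log2 fold change, with n = 3 against 3. The 20 genes of T cell receptor and CD8 identity summed to 13360, 13660 and 16050 CPM against 18030, 20430 and 23740 CPM, without overlap (exact permutation p = 0.1, the smallest that 3 against 3 allows). Of these, 6 rose and 0 fell (30% called), among them Cd27, Cd247, Cd8b1 and Lck, and 2 were called without Panc02 library 1 or 2 or Flt3L Panc02 library 2 or 3. In sorted bulk cells a larger share of T cells and more of these RNAs per cell cannot be told apart. On a scale that sets the T cell identity genes level between groups, the median of all genes moved to -0.57 and the calls to 125 higher and 7047 lower. Of the 115 named genes (56 that rose and 59 that fell), 82 were called in the same direction. This scale lowers genes as a whole, so falls tend to keep their call by its construction and it can check rises only.

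**Figure D1:**
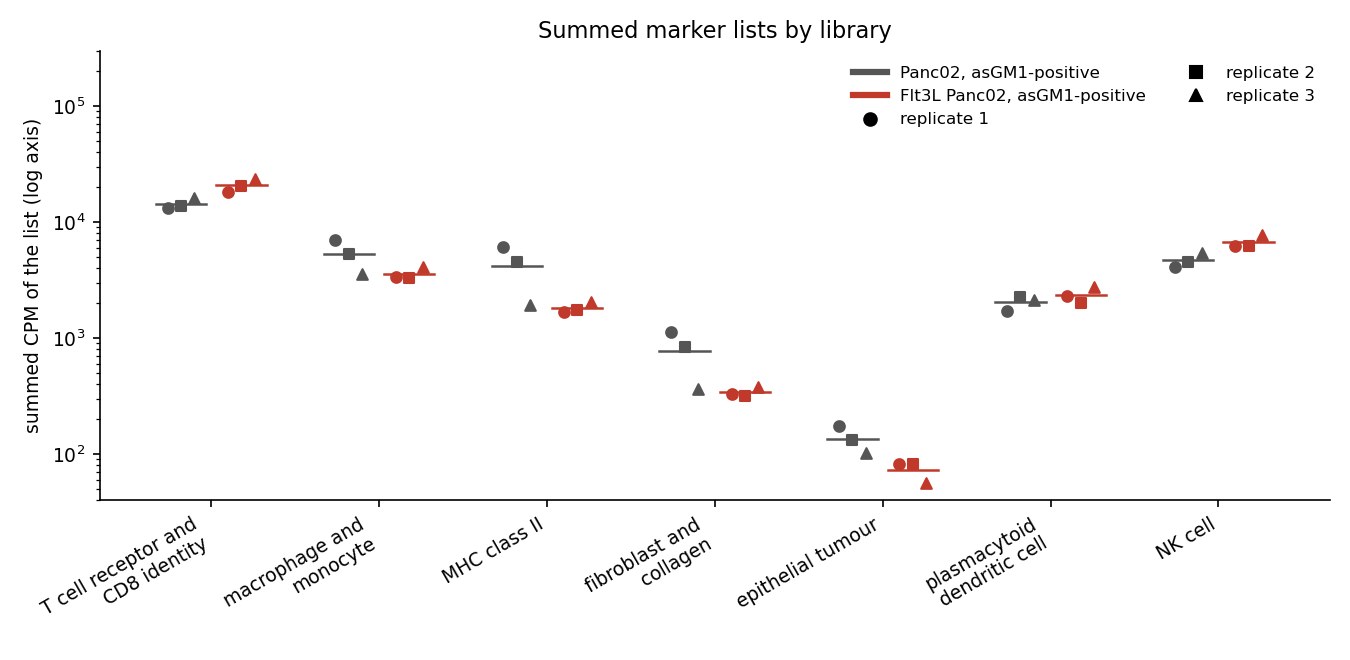
Summed CPM of 7 marker lists (log axis) in the 3 Panc02 (grey) and 3 Flt3L Panc02 (red) asGM1-positive libraries, with a bar at each group mean. T cell identity genes lie higher in all 3 Flt3L Panc02 libraries, and for macrophage, MHC class II and fibroblast genes Panc02 libraries 1 and 2 lie above a Panc02 library 3 that is near the Flt3L Panc02 level.

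Among genes of naive and stem-like T cells more rose than fell. Of 26 measured, 9 rose, 2 fell and 15 did not pass the test (42.3% called against 6.25% of all genes), with a median log2 fold change of 0.58 against -0.033 for all genes. Tcf7, which encodes the transcription factor TCF1 of naive and stem-like T cells, stood at 27.2, 19.8 and 24.6 CPM in the Panc02 libraries and 59.5, 97.4 and 68.8 CPM in the Flt3L Panc02 libraries. Every Flt3L Panc02 library was above every Panc02 library, a rise of 1.66 ± 0.23 on the log2 scale (adjusted p = 0.00579, edgeR). Lef1, the partner factor of TCF1, was at 12.5, 13.6 and 17.5 CPM against 27.8, 29.8 and 22.3 CPM (log2 fold change 0.88 ± 0.17). Its groups were also apart, with a smaller gap between the nearest libraries.

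The receptors that hold naive and central memory cells in the circulation through lymph nodes moved with them. Ccr7, the lymph node homing receptor, was at 85.6, 66.9 and 98.9 CPM in Panc02 and 145, 273 and 210 CPM in Flt3L Panc02 tumours, a log2 rise of 1.32 ± 0.21 (adjusted p = 0.00752, edgeR). Its groups did not overlap. S1pr1, the receptor for egress from tissue, was at 6.28, 4.64 and 5.24 CPM against 17.9, 18.1 and 12 CPM (1.57 ± 0.22). Klf2, a factor that drives S1pr1, was at 6.67, 6.53 and 6.23 CPM against 12.6, 21.1 and 17.4 CPM (1.39 ± 0.27). All 3 Panc02 libraries of Klf2 lay close together and the Flt3L Panc02 libraries spread above them.

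Slamf6, a surface marker of stem-like exhausted cells, was at 27.2, 24 and 26.5 CPM against 32.2, 65.3 and 62.1 CPM (1.04 ± 0.22, adjusted p = 0.0211, edgeR). Flt3L Panc02 library 1 was only just above the Panc02 range, and the call was lost without Panc02 library 1 or 2 or Flt3L Panc02 library 2 or 3 (adjusted p = 0.0668, 0.091, 0.088 and 0.0837). Cxcr5, the receptor of follicle-homing lymphocytes, rose from 0.607, 0.365 and 1.24 CPM to 5.91, 2.73 and 3.97 CPM, and Nsg2, a gene of naive and recently activated cells, rose from 4.07, 3.05 and 4.66 CPM to 8.76, 13.9 and 15.5 CPM. The members that fell were Kit and Igfbp4. Kit, the receptor for stem cell factor, was at 26.4, 20.6 and 18.1 CPM against 5.76, 4.21 and 3.07 CPM (-2.32 ± 0.26, adjusted p = 0.00347). Igfbp4 was at 31.1, 16.4 and 8.55 CPM against 5.13, 5 and 6.05 CPM, so that its fall was steepest against Panc02 library 1.

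Not all genes of this program moved. Il7r, the interleukin 7 receptor of naive and memory cells, was at 26.4, 38.6 and 42.9 CPM against 25.5, 32.4 and 30.2 CPM (-0.29 ± 0.17, adjusted p = 0.32, edgeR), with overlap. Bach2, Foxo1, Id3 and Xcl1 were also not called, Xcl1 at 463, 213 and 329 CPM against 372, 325 and 423 CPM. Leaving out Panc02 library 1, Panc02 library 2 or Flt3L Panc02 library 2 left 6 list members higher and 1 lower in each case. Tcf7, Ccr7, S1pr1, Nsg2 and Kit kept the call whichever library was left out. Without Panc02 libraries 1 and 2 together the list's median was 0.69. On the T cell identity scale it was 0.04, with 7 members higher and 5 lower and all genes at -0.57. Conventional and plasmacytoid dendritic cells also express Ccr7. The 24 plasmacytoid dendritic cell genes summed to 1712, 2240 and 2149 CPM against 2295, 2020 and 2758 CPM, with overlap, and their part in the rise was not tested. The most abundant member of that sum is Ly6c2, also a CD8+ T cell gene, and 8 of the 24 were under 1 CPM in all 6 libraries. The sum is therefore a poor measure of that cell type.

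**Figure D2:**
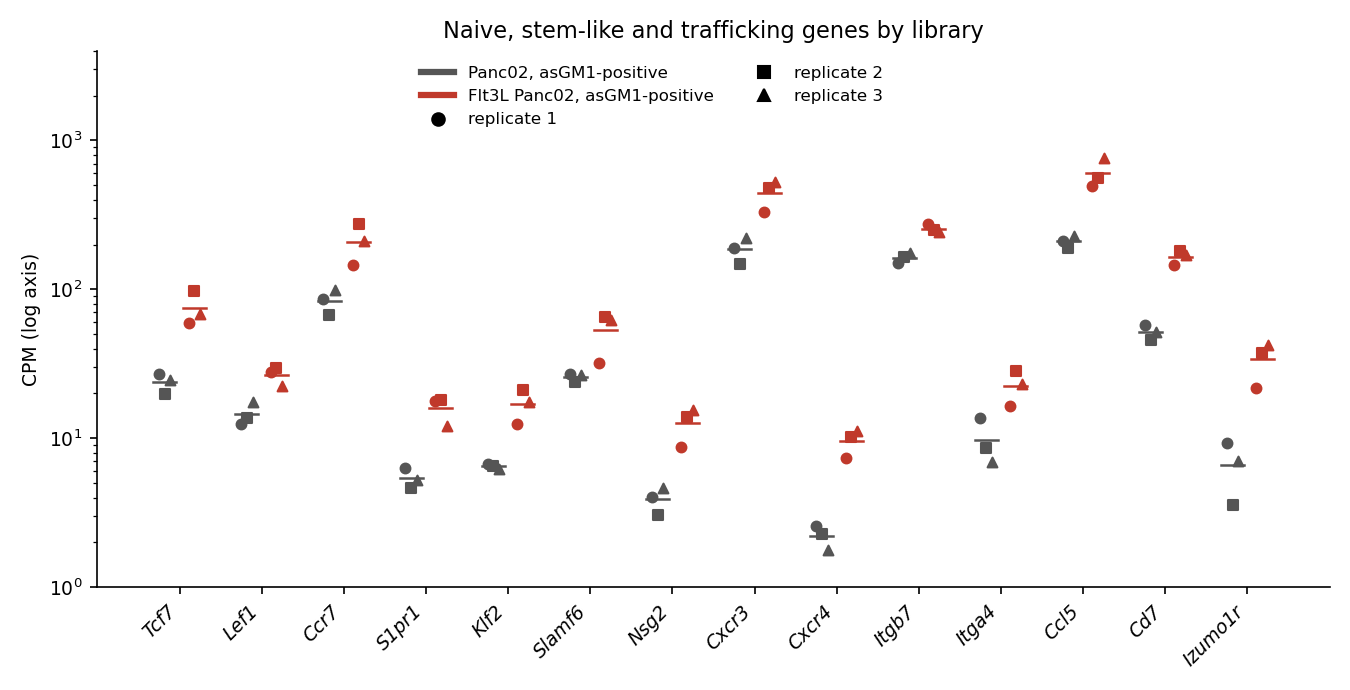
CPM (log axis) of 14 genes, mostly naive, stem-like and trafficking genes, in the 3 Panc02 (grey) and 3 Flt3L Panc02 (red) asGM1-positive libraries. A bar marks each group mean. The genes were chosen among those that were higher in Flt3L Panc02 tumours. Ccl5, Cd7 and Izumo1r come from outside the naive and trafficking lists. List members that fell or were not called, such as Kit, Igfbp4, Ccr1 and Il7r, are not shown. Red points lie above grey points for every gene shown, which reflects that choice. The gap is narrow for Slamf6, where Flt3L Panc02 library 1 was at 32.2 CPM and the highest Panc02 library at 27.2 CPM.

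Among 26 chemokine and trafficking receptor genes, which include Ccr7, S1pr1 and Cxcr5, 8 rose, 1 fell and 17 were not called. That is 34.6% called against 6.25% of all genes, with a median of 0.41. Cxcr3, the receptor for the interferon-induced chemokines CXCL9 and CXCL10, was at 190, 149 and 221 CPM in Panc02 and 331, 478 and 528 CPM in Flt3L Panc02 tumours (1.26 ± 0.18, adjusted p = 0.00579, edgeR). Cxcr4, the receptor for CXCL12, was at 2.57, 2.27 and 1.78 CPM against 7.38, 10.2 and 11.2 CPM (2.12 ± 0.31). Both kept the call whichever library was left out, and neither had overlapping groups. The integrin genes Itga4 and Itgb7, which together encode a gut-homing integrin, rose by 1.21 ± 0.32 and 0.65 ± 0.14. Ccr1, an inflammatory chemokine receptor, was the member that fell, from 14.6, 20.7 and 9.31 CPM to 6.70, 3.91 and 5.08 CPM.

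Genes of cells that stay in tumour tissue gave no call. Cxcr6 was at 1906, 1891 and 2096 CPM against 2340, 2357 and 2372 CPM (0.26 ± 0.12, adjusted p = 0.22, edgeR), higher in 3 of 3 libraries but not past the threshold. Cx3cr1, a trafficking receptor outside the tissue residence list, was at 104, 78.9 and 97.1 CPM against 99.4, 104 and 74.4 CPM (-0.01 ± 0.14) and was not called either. None of 21 tissue residence genes was called by edgeR, among them Itgae at 52.0, 22.9 and 33.6 CPM against 26.3, 27.6 and 25.9 CPM and Itga1 at 99.6, 129 and 134 CPM against 110, 122 and 70.7 CPM. Both genes had overlapping groups. Leaving out 1 library at a time left the trafficking list with between 6 and 12 calls.

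Granzyme genes C, D and E fell. Granzymes are serine proteases that killer cells inject into their targets, and in mice Gzmc to Gzmg form a cluster of closely related genes on chromosome 14 beside Gzmb. The promoters of the members show how alike they are, and they are shown because the levels of all 5 were lower in each Flt3L Panc02 library than in any Panc02 library, although Gzmf and Gzmg were not called. The sequences come from RefSeq, build GRCm38.p6, all on the minus strand, and the capitals mark a run of 20 bases found by script in the promoters of all 5 genes.
Gzmc, chr14:56234643-56234742: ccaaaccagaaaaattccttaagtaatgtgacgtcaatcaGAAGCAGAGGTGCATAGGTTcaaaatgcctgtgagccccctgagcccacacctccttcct
Gzmd, chr14:56132583-56132682: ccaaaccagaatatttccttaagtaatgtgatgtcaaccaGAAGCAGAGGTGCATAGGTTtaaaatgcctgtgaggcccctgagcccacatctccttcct
Gzme, chr14:56120616-56120715: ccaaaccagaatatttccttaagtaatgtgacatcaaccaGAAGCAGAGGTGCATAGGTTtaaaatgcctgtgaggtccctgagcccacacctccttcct
Gzmf, chr14:56211418-56211517: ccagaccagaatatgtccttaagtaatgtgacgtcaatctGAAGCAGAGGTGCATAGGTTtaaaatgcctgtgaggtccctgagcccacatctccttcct
Gzmg, chr14:56159585-56159684: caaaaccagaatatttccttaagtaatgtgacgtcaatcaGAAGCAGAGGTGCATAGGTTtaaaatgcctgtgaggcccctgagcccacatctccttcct
The run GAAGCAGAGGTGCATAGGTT, searched on both strands, was in 5 of 27025 promoters of 300 bases (0.0185%), those of Gzmc to Gzmg. Over 275 to 299 aligned bases the promoters were 86.1% to 94.0% identical in pairs, Gzmd and Gzme being the closest pair. Reads of such near-identical genes can be split between copies during counting, so the levels of single members are uncertain.

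Gzmc was at 1335, 2185 and 1651 CPM in the Panc02 libraries and 414, 74.1 and 229 CPM in the Flt3L Panc02 libraries, a log2 fold change of -2.85 ± 0.71 (adjusted p = 0.04, edgeR). Gzmd was at 30.2, 105 and 78.5 CPM against 9.19, 1.54 and 6.99 CPM (-3.59 ± 0.75, adjusted p = 0.021). Gzme was at 25.3, 95.3 and 67.5 CPM against 9.65, 1.84 and 6.69 CPM (-3.37 ± 0.77, adjusted p = 0.0293). In each of these genes Flt3L Panc02 library 2 was the lowest library and the groups did not overlap. Gzmf, at 283, 713 and 549 CPM against 122, 30.4 and 97.8 CPM, was apart in the same way but was not called (-2.63 ± 0.77, adjusted p = 0.0663), nor was Gzmg. The cluster summed to 1677, 3123 and 2360 CPM against 556.2, 107.9 and 340.7 CPM, 7.13 times higher in Panc02 tumours (exact permutation p = 0.1, the smallest possible).

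Of the 5 granzyme C to N genes tested, 3 fell and 0 rose (60% called against 6.25% of all genes). Their median was -3.37, or -3.47 without Panc02 libraries 1 and 2 and -3.85 on the T cell identity scale. Gzmc lost its call without Panc02 library 1 or 2 or Flt3L Panc02 library 2 or 3 (adjusted p = 0.0795, 0.118, 0.111 and 0.141, edgeR). Gzmd and Gzme lost theirs without Panc02 library 2 or Flt3L Panc02 library 2 or 3, with adjusted p up to 0.0835 and 0.106. The direction held in each of these runs. The macrophage sum was 6972, 5260 and 3561 CPM in the Panc02 libraries, and its part in the falls of the granzymes was not tested.

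Of 20 other genes of killing tested, 1 rose and 0 fell, a share of 5% near the 6.25% of all genes. Crtam, a receptor on activated killer cells, was the gene that rose (91.5, 62.5 and 79.5 CPM against 153, 137 and 145 CPM, 0.90 ± 0.18). Its call was lost without Panc02 library 2 or Flt3L Panc02 library 2 or 3 (adjusted p = 0.0777, 0.06 and 0.0605, edgeR). Gzmb, which lies beside the cluster, was at 1724, 4780 and 3974 CPM against 2876, 1331 and 2085 CPM (-0.74 ± 0.55, adjusted p = 0.446). Flt3L Panc02 libraries 1 and 3 lay inside the Panc02 range. Gzma was at 31.3, 132 and 183 CPM against 30.6, 31.0 and 42.6 CPM (-1.73 ± 0.59, adjusted p = 0.101), with Panc02 library 1 among the Flt3L Panc02 libraries. It passed the threshold without that library (adjusted p = 0.0453, edgeR). It also passed on the T cell identity scale (adjusted p = 0.0122, edgeR), which favours falls by its construction. Prf1, which encodes perforin, was at 628, 1262 and 1039 CPM against 1432, 674 and 774 CPM (-0.02 ± 0.38), Gzmk had a log2 fold change of 0.46 ± 0.38 and Fasl of 0.35 ± 0.15, and none of them was called.

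Genes of the Ly49 family, inhibitory and activating receptors for MHC class I on NK cells and some CD8+ T cells, rose in part. Of 12 tested, 4 rose and 1 fell (41.7% called against 6.25% of all genes), with a median of 0.75. Klra6 was at 2.48, 2.47 and 2.44 CPM in the Panc02 libraries and 8.98, 9.80 and 7.66 CPM in the Flt3L Panc02 libraries (1.84 ± 0.18, adjusted p = 0.00199, edgeR). Klra7 was at 9.41, 10.9 and 6.55 CPM against 26.7, 34.8 and 33.7 CPM (1.83 ± 0.19, adjusted p = 0.00283). Klra1 was at 4.17, 4.01 and 3.95 CPM against 8.31, 10.5 and 10.6 CPM (1.28 ± 0.18). These 3 genes had no overlap between groups and kept the call whichever library was left out. Klra9 rose by 1.40 ± 0.27 and lost its call without Flt3L Panc02 library 2 (adjusted p = 0.06).

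The member that fell was Klra2, at 5.08, 4.44 and 1.65 CPM against 1.02, 1.43 and 1.45 CPM. Klra5 was at 17.6, 37.6 and 37.4 CPM against 13, 4.76 and 10.9 CPM, lower in all 3 libraries but not called (-1.69 ± 0.65, adjusted p = 0.137, edgeR). Without Flt3L Panc02 library 2, 3 members were higher and 0 lower. The Ly49 genes are close copies of each other, so reads may have been split between them. On the T cell identity scale 3 members were higher and 3 lower. Of 16 NK cell genes tested 1, Fcgr3, was called, as lower, with a median of -0.46 and 11 members below 0. That share of 6.25% equals that of all genes. The NK cell marker Ncr1 was low, at 1.25, 0.528 and 0.18 CPM against 0.239, 0.387 and 0.288 CPM, and Khdc1a and Khdc1c were at 0 in all 6 libraries. The 18 NK cell genes in the table summed to 4106, 4558 and 5447 CPM against 6173, 6181 and 7779 CPM, higher without overlap. Most of that sum was Nkg7, which CD8+ T cells also express.

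**Figure D3:**
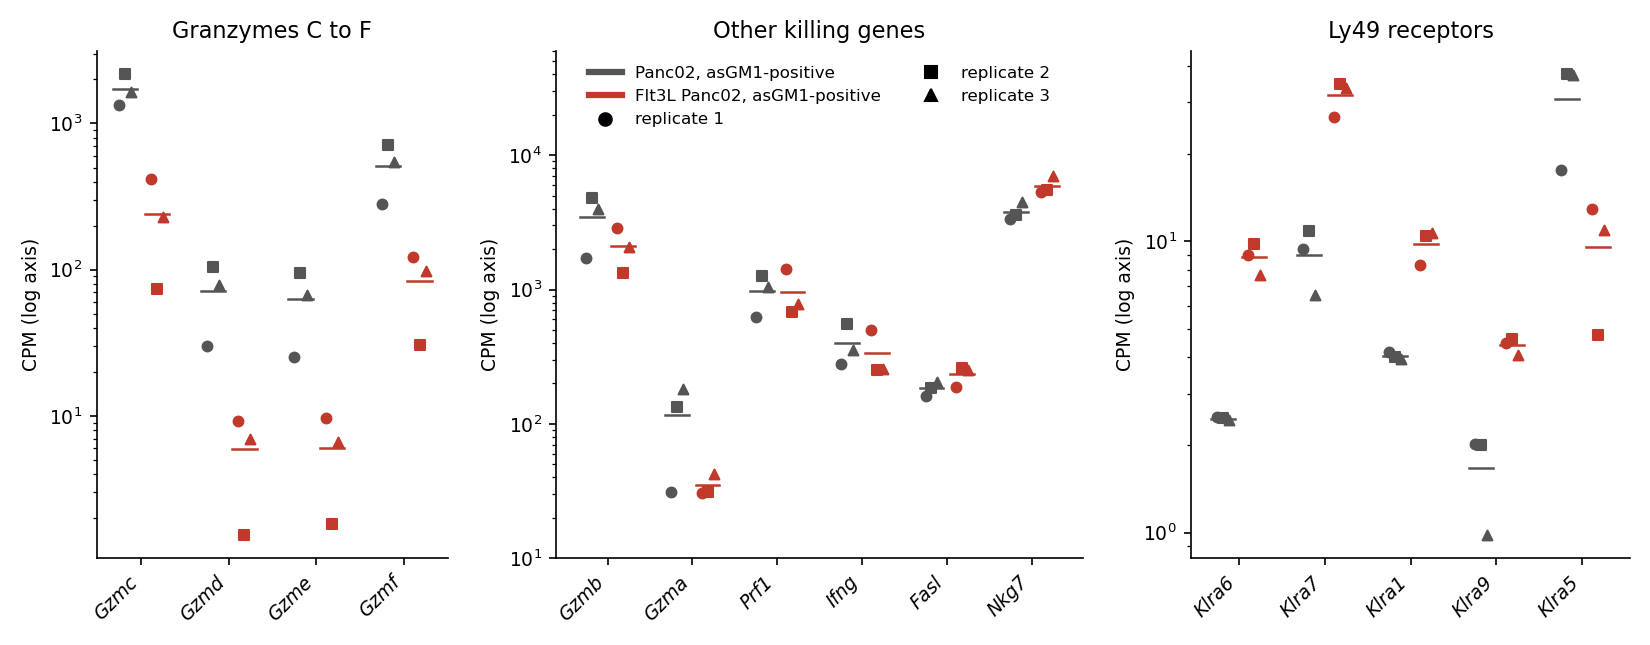
CPM (log axis) of granzymes C to F, other killing genes and Ly49 receptors in each Panc02 (grey) and Flt3L Panc02 (red) asGM1-positive library, with a bar at each group mean. Granzymes C to F lie lower and Klra6, Klra7, Klra1 and Klra9 higher in all 3 Flt3L Panc02 libraries, while the groups overlap for Gzmb, Gzma, Prf1, Ifng and Fasl.

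Among 20 other NK receptor genes of T cells, Cd160 rose and Fcgr3 fell (10% called against 6.25% of all genes). Cd160, a receptor of activated and exhausted CD8+ T cells, was at 180, 166 and 213 CPM against 306, 372 and 455 CPM (1.02 ± 0.16, adjusted p = 0.00752, edgeR) and kept the call whichever library was left out. Fcgr3, an Fc receptor of macrophages and NK cells, was at 55.4, 55.3 and 24.5 CPM against 18.0, 15.2 and 17.8 CPM. Its Panc02 libraries 1 and 2 were higher than library 3, as in the macrophage sum, whose part in the fall was not tested. Fcgr3 lost the call without Panc02 library 1 or 2 or Flt3L Panc02 library 2 or 3 (adjusted p = 0.0942, 0.0985, 0.0982 and 0.0899, edgeR). Klrg1, Klrk1 and Klrc1 were not called.

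Of 19 inhibitory receptor and exhaustion genes tested, 8 rose, 0 fell and 11 were not called (42.1% called higher against 2.05% of all genes), with a median of 0.49. Tox, the transcription factor that fixes the exhausted state, was at 92.4, 59.5 and 70.5 CPM against 158, 241 and 167 CPM (1.35 ± 0.28, adjusted p = 0.0214, edgeR), and its relative Tox2 was at 1.5, 0.988 and 1.42 CPM against 8.36, 6.49 and 3.06 CPM. Tigit, an inhibitory receptor for CD155, was at 95.8, 91.8 and 116 CPM against 184, 205 and 190 CPM (0.93 ± 0.20, adjusted p = 0.0233). The groups of these genes did not overlap. Vsir, which encodes the inhibitory receptor VISTA, was at 149, 188 and 199 CPM against 275, 371 and 371 CPM (0.92 ± 0.15, adjusted p = 0.00771). Lag3 was at 27.2, 32.9 and 43.0 CPM against 57.0, 66.5 and 64.8 CPM (0.87 ± 0.23, adjusted p = 0.0495). Btla, Cd38 and Nfatc1 completed the list of those that rose.

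Pdcd1, which encodes PD-1, was at 1908, 2016 and 2694 CPM against 3082, 2977 and 3585 CPM, apart in all libraries but not called (0.54 ± 0.18, adjusted p = 0.0936, edgeR). Ctla4 was at 130, 207 and 225 CPM against 248, 502 and 399 CPM (1.03 ± 0.31, adjusted p = 0.0691). Havcr2, which encodes TIM-3, a receptor of terminal exhaustion, was at 203, 323 and 293 CPM against 262, 171 and 146 CPM (-0.50 ± 0.31, adjusted p = 0.356), and Entpd1, which encodes CD39, was at 110, 150 and 134 CPM against 166, 127 and 131 CPM. For both the groups overlapped. Leaving out Flt3L Panc02 library 2 left 1 member higher, Panc02 library 1 or 2 left 2, and Flt3L Panc02 library 3 left 3. Vsir kept its call in each run, while Tox, Tox2, Btla, Tigit and Lag3 had adjusted p up to 0.0958, 0.0939, 0.0776, 0.0985 and 0.179. Without Panc02 libraries 1 and 2 the median was 0.35. On the T cell identity scale it was -0.03, with 2 members higher and 4 lower. That scale moved all genes to a median of -0.57. The list's median was therefore no longer above 0 but stood 0.54 above that of all genes.

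Of 18 genes for costimulatory receptors 7 rose, 0 fell and 11 were not called (38.9% called higher against 2.05% of all genes), with a median of 0.53. Cd27, the receptor for CD70 on naive and memory T cells, was at 193, 193 and 225 CPM against 348, 374 and 344 CPM (0.80 ± 0.11, adjusted p = 0.00579, edgeR), and it kept its call whichever library was left out. Slamf1 and Cd40lg rose by 0.54 ± 0.11 and 0.89 ± 0.22. Tnfrsf9, which encodes 4-1BB, was at 1150, 1490 and 1530 CPM against 1421, 713 and 1001 CPM (-0.41 ± 0.30) and was not called. The list had 1 call without Panc02 library 2 or without Flt3L Panc02 library 2, 2 without Flt3L Panc02 library 3 and 3 without Panc02 library 1. Its median on the T cell identity scale, which moved all genes to a median of -0.57, was -0.02, with 0 members higher and 3 lower.

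Of 28 T cell receptor signalling and feedback genes, 5 rose (Lck, Ubash3a, Nfatc1, Ubash3b and Sla), 0 fell and 23 were not called, which is 17.9% called higher against 2.05% of all genes. Lck, the kinase that starts signalling from the receptor, was at 1728, 1858 and 2130 CPM against 2403, 2751 and 3084 CPM (0.53 ± 0.12, adjusted p = 0.0274, edgeR). The 5 calls became 0 without Panc02 library 1 or 2 or Flt3L Panc02 library 2 or 3, 2 without Flt3L Panc02 library 1, and 10 without Panc02 library 3. On the T cell identity scale, which Lck helps to set and which moved all genes to a median of -0.57, the list's median was -0.22.

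Immediate early genes were mostly higher, with few calls. Of 24 tested, 3 rose and 1 fell (16.7% called against 6.25% of all genes), 17 were above 0 and the median was 0.26. They summed to 3971, 4231 and 5009 CPM against 6020, 7979 and 6629 CPM, without overlap. Junb, an AP-1 subunit, was at 785, 781 and 1118 CPM against 1543, 2120 and 1745 CPM (1.01 ± 0.20, adjusted p = 0.018, edgeR). Dusp1, a MAP kinase phosphatase, and Ier2 rose by 0.73 ± 0.18 and 0.67 ± 0.17. Fosl1 fell, with a log2 fold change of -1.86, or -0.43 without Panc02 libraries 1 and 2. Nr4a1, a gene induced by the T cell receptor, was at 92.2, 116 and 206 CPM against 263, 417 and 266 CPM (1.19 ± 0.36, adjusted p = 0.0696), apart in all libraries but not called. None of the 24 was called without Panc02 library 1 or 2 or Flt3L Panc02 library 2 or 3.

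Among 18 effector and residence transcription factor genes, Ikzf3 and Tbx21 rose and Zeb2 and Rora fell (22.2% called against 6.25% of all genes). Tbx21, which encodes T-bet, the factor of type 1 effector cells, was at 256, 257 and 343 CPM against 422, 452 and 391 CPM (0.56 ± 0.13, adjusted p = 0.0274, edgeR). Zeb2, which promotes terminal effector cells and is also made by macrophages, was at 30, 26.5 and 19.1 CPM against 14.7, 13.5 and 10.3 CPM (-0.97 ± 0.17, adjusted p = 0.0121). The groups of both genes were apart. Eomes, at 14.3, 18.5 and 17.1 CPM against 20.5, 24.2 and 18.6 CPM, was not called. The list had 0 calls without Panc02 library 2 or Flt3L Panc02 library 2, 1 without Flt3L Panc02 library 3 and 2 without Panc02 library 1.

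Cytokine genes changed selectively. Of 31 tested, 6 rose (Ccl5, Il21, Il16, Cd40lg, Ltb and Tnfsf8) and 3 fell (Tnfsf11, Spp1 and Csf2), which is 29% called against 6.25% of all genes. Ccl5, a chemokine stored by memory and effector CD8+ T cells, was at 213, 188 and 229 CPM in Panc02 and 495, 559 and 764 CPM in Flt3L Panc02 tumours (1.53 ± 0.19, adjusted p = 0.00497, edgeR). Tnfsf11, which encodes RANKL, was at 31.8, 35.3 and 37.8 CPM against 18.5, 21.6 and 17.6 CPM (-0.86 ± 0.12, adjusted p = 0.00579). Neither had overlapping groups, and both kept the call whichever library was left out. Csf2, which encodes GM-CSF, was at 31.1, 53.9 and 32.0 CPM against 16.0, 7.85 and 12.2 CPM (-1.70 ± 0.41, adjusted p = 0.0349). Il21 was listed at 0 in the 3 Panc02 libraries and at 0.56, 0.0732 and 0.211 CPM in the Flt3L Panc02 libraries, where a single fragment is about 2.71 counts and 3 fragments about 0.08 CPM, so it rests on few fragments.

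Spp1, which encodes osteopontin, a product of both macrophages and T cells, was at 1071, 826 and 425 CPM against 244, 151 and 179 CPM (-2.02 ± 0.30, adjusted p = 0.00646, edgeR). Spp1 is itself a member of the macrophage sum. Its Panc02 libraries had the order of that sum, as did 71.3% of all genes that fell. The part of macrophage RNA in its fall was not tested. Its log2 fold change without Panc02 libraries 1 and 2 was -1.14. Effector cytokines showed no call. Ifng was at 280, 553 and 357 CPM against 497, 250 and 257 CPM (-0.25 ± 0.37, adjusted p = 0.735), Tnf at 33.7, 40.4 and 39.5 CPM against 38.4, 42.6 and 38.2 CPM (0.07 ± 0.15, adjusted p = 0.832), and Ccl3 and Ccl4 at 0.11 ± 0.37 and 0.46 ± 0.30 on the log2 scale. The list had 4 calls without Panc02 library 2, Flt3L Panc02 library 2 or Flt3L Panc02 library 3, and 5 without Panc02 library 1.

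Beyond the lists, and leaving aside T cell receptor segments and unnamed gene models, the genes with the largest log2 rise among called genes of at least 5 CPM, besides Cxcr4, Klra6, Klra7, Nsg2 and Tcf7, included Izumo1r, Cd7, Ier5l and Ephx1. Izumo1r, which encodes folate receptor 4 and is known from regulatory and anergic CD4+ T cells, was at 9.36, 3.55 and 7.07 CPM against 21.9, 37.2 and 42.6 CPM (2.35 ± 0.35, adjusted p = 0.00626, edgeR). Cd7, an immunoglobulin family receptor of T and NK cells, was at 57.4, 46.0 and 51.5 CPM against 146, 181 and 170 CPM (1.68 ± 0.16, adjusted p = 0.00199). Ephx1, an epoxide hydrolase, was at 47.3, 25.9 and 26.8 CPM against 81.1, 107 and 111 CPM (1.58 ± 0.23). All 3 kept the call whichever library was left out. The ranking took only genes without overlap between the groups, so their separation was set by that choice. Cd4 rose from 3.13, 2.78 and 3.25 CPM to 4.43, 4.98 and 4.91 CPM, which is low beside Cd8a in both groups, and lost its call whichever library was left out. Foxp3 was not called.

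Some genes of the mitotic phase of the cell cycle fell. Of 40 mitosis and G2/M genes 6 fell, 0 rose and 34 were not called (15% called lower against 4.2% of all genes), 38 had a log2 fold change below 0, and the median was -0.33. Mki67, the proliferation marker Ki-67, was at 167, 202 and 212 CPM against 139, 109 and 99.2 CPM (-0.74 ± 0.15, adjusted p = 0.0173, edgeR). Cenpf, a centromere protein gene of dividing cells, was at 58.1, 57.4 and 58.5 CPM against 35.3, 35.4 and 26.8 CPM (-0.84 ± 0.12, adjusted p = 0.00579). Their groups did not overlap. Cenpe, Ndc80, Hmmr and Bub1 also fell. The groups of Top2a, a DNA topoisomerase of dividing cells, at 250.7, 292 and 306 CPM against 261, 212 and 163 CPM, overlapped, and it was not called.

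None of 38 DNA replication and G1/S genes was called by edgeR, with a median of -0.19 and 30 members below 0. Cenpf kept its call whichever library was left out. The mitotic list had 1 call without Panc02 library 2, Flt3L Panc02 library 2 or Flt3L Panc02 library 3, 4 without Panc02 library 1 and 12 without Flt3L Panc02 library 1. Its median was -0.40 without Panc02 libraries 1 and 2. Of 18 genes for CDK inhibitors, D cyclins and related growth regulators, 3 rose (Btg1, Cdkn2c and Gadd45b) and 2 fell (Ccnd1 and Gadd45g). That is 27.8% called against 6.25% of all genes. Btg1, an antiproliferative gene high in resting lymphocytes, was at 423, 454 and 502 CPM against 662, 1022 and 812 CPM (0.85 ± 0.16, adjusted p = 0.014). It lost the call without Panc02 library 1 or 2 or Flt3L Panc02 library 2 (adjusted p = 0.0567, 0.0585 and 0.0576), and without any of these 3 the list had 0 calls.

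Some genes of cholesterol synthesis fell. This pathway is switched on by the transcription factor SREBP2 in growing cells, and SREBP2 acts at promoters with sterol regulatory elements and CCAAT boxes. The members Hmgcs1, Idi1 and Msmo1, which fell, are shown with the motif CCAAT, on either strand, and the sterol element TCACNCCAC in capitals, from RefSeq, build GRCm38.p6.
Hmgcs1, chr13:119690161-119690360, plus strand: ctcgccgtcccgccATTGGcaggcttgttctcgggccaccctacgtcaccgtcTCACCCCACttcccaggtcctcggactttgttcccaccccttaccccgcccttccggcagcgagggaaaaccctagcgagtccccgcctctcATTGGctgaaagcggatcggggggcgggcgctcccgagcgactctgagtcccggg
Idi1, chr13:8885416-8885615, plus strand: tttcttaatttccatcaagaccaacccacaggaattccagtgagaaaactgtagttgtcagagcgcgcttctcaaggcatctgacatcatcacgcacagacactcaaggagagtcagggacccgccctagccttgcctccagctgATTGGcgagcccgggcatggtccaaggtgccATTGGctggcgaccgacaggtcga
Msmo1, chr8:64733569-64733768, minus strand: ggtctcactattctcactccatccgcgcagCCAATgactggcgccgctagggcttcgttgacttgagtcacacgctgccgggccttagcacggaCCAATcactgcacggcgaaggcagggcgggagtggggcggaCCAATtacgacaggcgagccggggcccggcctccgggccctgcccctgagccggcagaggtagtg
Of the 27 genes tested, 18 had a promoter in the table. CCAAT, on either strand, was in the promoters of 6 of 6 that fell and 10 of 12 that did not, against 37.9% of 27025 promoters. TCACNCCAC was in 1 of these 18, that of Hmgcs1, against 1.22% of all.

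Of the 27 genes, 8 fell, 0 rose and 19 were not called (29.6% called lower against 4.2% of all genes), 24 were below 0, and the median was -0.53. Hmgcs1, the entry enzyme of the mevalonate pathway, was at 62.6, 82.6 and 68.8 CPM in Panc02 and 49.5, 31.3 and 31.4 CPM in Flt3L Panc02 tumours (-0.93 ± 0.19, adjusted p = 0.0181, edgeR). Idi1, which isomerises the isoprene unit, was at 38.2, 48.7 and 41.1 CPM against 26.7, 15.3 and 14.8 CPM (-1.17 ± 0.24, adjusted p = 0.0188). Msmo1, a sterol demethylase, was at 51.9, 58.8 and 42.6 CPM against 27.2, 22.7 and 24.2 CPM (-1.05 ± 0.18, adjusted p = 0.00971). In each the Panc02 libraries were all above the Flt3L Panc02 libraries, and library 1 was the highest of the latter. Hsd17b7, Sqle, Fdps, Sc5d and Cyp51, enzymes of the same route, also fell.

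The list had 0 calls without Flt3L Panc02 library 2, 1 without Flt3L Panc02 library 3, 2 without Panc02 library 2 and 4 without Panc02 library 1. Its median was -0.37 without Panc02 libraries 1 and 2 and -1.06 on the T cell identity scale. All 8 calls were kept on that scale, which moved all genes to a median of -0.57 and so favours falls by its construction. Glycolysis and hypoxia genes had 2 calls of 31, both lower, P4ha2 and Vegfa, a share of 6.45% that is near the 6.25% of all genes. Vegfa, an angiogenic factor, was at 9.58, 12.9 and 8.19 CPM against 4.10, 2.40 and 2.69 CPM (-1.74 ± 0.29, adjusted p = 0.00947, edgeR). None of 36 nuclear respiratory chain genes was called, with a median of 0.24.

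Interferon-stimulated genes fell in part. Type I interferons act through the factor ISGF3, which binds interferon-stimulated response elements (ISRE) in the promoters of antiviral genes. The members Ifit1, Ifit3 and Rsad2 are shown with the ISRE core, which is GAAA, any 2 bases and GAAA again, or TTTC, any 2 bases and TTTC on the other strand, in capitals, from RefSeq, build GRCm38.p6.
Ifit1, chr19:34640699-34640818, plus strand: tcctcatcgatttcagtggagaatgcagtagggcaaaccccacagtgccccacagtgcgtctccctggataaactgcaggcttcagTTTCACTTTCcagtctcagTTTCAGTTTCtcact
Ifit3, chr19:34583339-34583458, plus strand: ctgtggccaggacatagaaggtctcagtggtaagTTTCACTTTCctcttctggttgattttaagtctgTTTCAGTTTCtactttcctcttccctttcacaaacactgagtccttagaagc
Rsad2, chr12:26456523-26456642, minus strand: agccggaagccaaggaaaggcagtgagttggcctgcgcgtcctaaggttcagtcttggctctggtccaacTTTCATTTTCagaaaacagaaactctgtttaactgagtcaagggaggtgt
Promoters were in the table for 38 of 51 genes tested. The core was in 5 of the 8 that fell and 16 of the 30 that were not called, against 3.49% of 27025 promoters.

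Of the 51 genes, 10 fell, 0 rose and 41 were not called (19.6% called lower against 4.2% of all genes), with a median of -0.15. Ifit1, an antiviral RNA-binding protein gene, was at 81.4, 81.7 and 58.5 CPM in Panc02 and 38.5, 27.0 and 37.2 CPM in Flt3L Panc02 tumours (-1.11 ± 0.17, adjusted p = 0.00752, edgeR). Rsad2, which encodes viperin, was at 25.8, 26.3 and 20.2 CPM against 14.2, 7.02 and 6.13 CPM (-1.40 ± 0.26, adjusted p = 0.0141). Ifi44 was at 9, 7.46 and 4.34 CPM against 1.57, 1.63 and 0.809 CPM (-2.37 ± 0.35, adjusted p = 0.00626). None of these had overlapping groups, and Panc02 library 3 was the lowest of its group for all 3. Ifi204, Mx1, Eif2ak2, Ifit2, Oasl2, Ifit3b and Ifit3 fell as well, where the copies Ifit3 and Ifit3b may share reads.

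Other members were not called. Irf7, the amplifying transcription factor, was at 129, 132 and 127 CPM against 119, 101 and 143 CPM (-0.10 ± 0.12, adjusted p = 0.683, edgeR), and Isg15 at 36.0, 40.8 and 36.9 CPM against 34.4, 23.3 and 42.8 CPM. The groups of both genes overlapped. The list summed to 6215, 6017 and 5455 CPM against 5764, 5706 and 6338 CPM. Ifit1 and Ifi44 kept the call whichever library was left out, while the list had 2 calls without Flt3L Panc02 library 2, 3 without Panc02 library 2, 4 without Flt3L Panc02 library 3 and 5 without Panc02 library 1. Macrophage RNA moved in the same order as Ifi44 over the Panc02 libraries, and its part in these falls was not tested; without Panc02 libraries 1 and 2, Ifit1 and Ifi44 had log2 fold changes of -0.77 and -1.69. Of 34 genes for interferon gamma induced GTPases and MHC class I, 2 fell (Iigp1 and Gbp3) and 0 rose. That share of 5.88% is near the 6.25% of all genes, and there were 0 calls without Panc02 library 1 or 2 or Flt3L Panc02 library 2 or 3.

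Genes that make and convert asialo-GM1 were examined because the gate is drawn on that lipid. Of 23 tested, 3 rose and 1 fell (17.4% called against 6.25% of all genes). B4galnt1, whose enzyme makes the precursor asialo-GM2 and its sialylated relatives, was at 883, 894 and 1067 CPM against 1360, 1530 and 1390 CPM (0.59 ± 0.12, adjusted p = 0.021, edgeR). B3galt4, whose enzyme adds the galactose that completes asialo-GM1, was at 12.2, 13.4 and 17.5 CPM against 17.9, 19.1 and 21.5 CPM and was not called (0.44 ± 0.16, adjusted p = 0.117). Both were higher in all 3 Flt3L Panc02 libraries, B3galt4 by a narrow gap. St3gal1 and St6galnac4, sialyltransferase genes, rose by 0.55 ± 0.11 and 0.42 ± 0.09.

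St3gal5, whose enzyme makes GM3 and so opens the sialylated branch, was at 43.1, 22.5 and 12.3 CPM against 9.07, 7.41 and 7.86 CPM (-1.68 ± 0.40, adjusted p = 0.0329, edgeR). Its Panc02 libraries had the order of the macrophage sum, as did 71.3% of all genes that fell. The part of macrophage RNA in its fall was not tested. Its log2 fold change was -0.59 without Panc02 libraries 1 and 2. B4galnt1 lost its call without Panc02 library 1 or 2 or Flt3L Panc02 library 2 or 3 (adjusted p = 0.0928, 0.0923, 0.0863 and 0.0583, edgeR). On the T cell identity scale, where all genes had a median of -0.57, its log2 fold change was 0.06 and that of St6galnac4 -0.11. St3gal5 lost its call without any library but Panc02 library 3, with adjusted p from 0.0561 to 0.12 (edgeR). The list had 0 calls without Panc02 library 2 or Flt3L Panc02 library 2 and 1 without Panc02 library 1 or Flt3L Panc02 library 3.

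The largest falls were in genes that T cells make little of. Acta2, smooth muscle actin of myofibroblasts, was at 101, 46.1 and 19.5 CPM in Panc02 libraries 1, 2 and 3 and 2.48, 2.12 and 2.58 CPM in the Flt3L Panc02 libraries (-4.54 ± 0.51, adjusted p = 0.00347, edgeR). Il33, an alarmin of stromal cells, was at 24.3, 10.1 and 3.45 CPM against 0.197, 0.178 and 0.798 CPM (-5.01 ± 0.78, adjusted p = 0.00752). In both genes the Panc02 libraries ran from highest to lowest in the order 1, 2, 3. The ranking by size of fall took only genes without overlap between the groups, so their separation was set by that choice. Sema3c, Gas1, Cavin2, Vldlr, Rnd3, Spon2 and Olfml2b, the other genes of at least 5 CPM with the largest falls beside Gzmd, had the same order. Of the 858 genes that fell, 612 (71.3%) had this order of the Panc02 libraries, against 23.3% of all genes tested and 9.33% of those that rose.

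By cell type, 10 of 30 macrophage and monocyte genes, 7 of 21 fibroblast and collagen genes, 5 of 11 MHC class II genes and 3 of 14 epithelial tumour genes fell, where 4.2% of all genes fell. Fn1, a matrix protein of macrophages and fibroblasts, was at 384, 275 and 106 CPM against 41.4, 31.3 and 26.1 CPM (-2.95 ± 0.42, adjusted p = 0.00579, edgeR). Krt18 and Krt8, keratins of the tumour's epithelial type, were at 30.7, 18.5 and 11.2 CPM against 3.04, 2.44 and 2.05 CPM and at 70.9, 40.9 and 20.5 CPM against 8.80, 7.39 and 6.80 CPM. Fn1, Krt18, Krt8 and Acta2 kept the call whichever library was left out, and without Panc02 libraries 1 and 2 their log2 fold changes were -1.68, -2.15, -1.41 and -3.02. Fap, Krt19 and Krt20 were at 0 in all 6 libraries. Epcam, an epithelial adhesion gene also made by some lymphoid and dendritic cells, went the other way and rose from 3.43, 3.25 and 3.27 CPM to 6.32, 8.01 and 6.41 CPM (1.06 ± 0.20, adjusted p = 0.0148), a call lost without Panc02 library 2 or Flt3L Panc02 library 2 (adjusted p = 0.0607 and 0.0647).

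For MHC class II, Panc02 library 3 was at the Flt3L Panc02 level, as in the macrophage and fibroblast sums. H2-Ab1 was at 1500, 1150 and 485 CPM against 409, 412 and 532 CPM (-1.21 ± 0.31, adjusted p = 0.0437, edgeR), and its groups overlapped. The 5 calls became 0 when any library but Panc02 library 3 was left out. The medians of the macrophage, fibroblast and MHC class II lists were -1.31, -1.90 and -1.21 with all libraries and -0.20, -0.37 and -0.08 without Panc02 libraries 1 and 2. Fibroblast calls numbered 1 or 2 without Panc02 library 1 or 2 or Flt3L Panc02 library 2 or 3 and 12 without Panc02 library 3. Macrophage calls numbered 3 to 5 without any single library but Panc02 library 3 and 21 without that library. Fewer such cells among the sorted cells and less of their RNA cannot be told apart.

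Dendritic cell genes gave a mixed picture. Flt3, the receptor gene of dendritic cells, was at 2.09, 1.27 and 0.24 CPM against 1.03, 1.41 and 0.621 CPM (-0.24 ± 0.55, adjusted p = 0.84, edgeR), and Flt3l of the sorted cells was at 51.3, 66.9 and 77.7 CPM against 73.5, 78.1 and 91.8 CPM (0.31 ± 0.15, adjusted p = 0.222). These libraries hold sorted CD8+ cells, so they do not check the tumour's own Flt3L. Of 24 conventional dendritic cell genes 5 fell and 1, Ccr7, rose (25% called against 6.25% of all genes). Of 24 plasmacytoid dendritic cell genes 2 rose and 1 fell (12.5% called). The conventional list had 1 lower call without Panc02 library 1 or 2 or Flt3L Panc02 library 2 or 3 and 9 without Panc02 library 3, where the plasmacytoid list had 3 higher and 4 lower. Their medians were -0.58 and 0.64 with all libraries and 0.13 and 1.40 without Panc02 libraries 1 and 2, so that the conventional list changed sign. Pacsin1, a neuronal-type endocytosis gene of plasmacytoid dendritic cells, was at 35.7, 25.6 and 45.7 CPM against 94.2, 110 and 103 CPM (1.52 ± 0.20, adjusted p = 0.00579). Cd209d was listed at 0 in the Panc02 libraries and at 0.249, 0.439 and 0.355 CPM in the Flt3L Panc02 libraries. Siglech, the defining surface marker of that cell type, was at 1.75, 3.10 and 0.0901 CPM against 4.56, 2.33 and 1.60 CPM and was not called.

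Of 16 B and plasma cell genes tested, Cd79b and Ighm rose (12.5% called against 6.25% of all genes), but the list's median was -1.03 and 10 members were below 0. Ighm went from 294, 198 and 212 CPM to 301.4, 434 and 457 CPM (0.76 ± 0.19, adjusted p = 0.0378, edgeR). Pax5 was at 0 in all 6 libraries. Cd79b lost its call without Panc02 library 1 or 2 or Flt3L Panc02 library 2 or 3, with adjusted p up to 0.102 (edgeR). Ighm lost its call without Panc02 library 2 or 3 or Flt3L Panc02 library 2 or 3, with adjusted p up to 0.144. Of 14 gamma delta and type 17 T cell genes tested, 2 rose and 0 fell (14.3% called), but the median was -0.97 and 10 were below 0. Their summed level was lower without overlap, at 166.5, 141.8 and 151.3 CPM against 140.2, 114 and 125.6 CPM. Trgc1 rose from 5, 4.17 and 4.45 CPM to 11, 11.4 and 15.9 CPM (1.49 ± 0.21, adjusted p = 0.00579, edgeR). It kept the call whichever library was left out. Trgc4 rose too, a call lost whichever library was left out. Trgc2, at 144, 124 and 123 CPM against 104, 85.0 and 94.9 CPM, was not called.

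**Figure D4:**
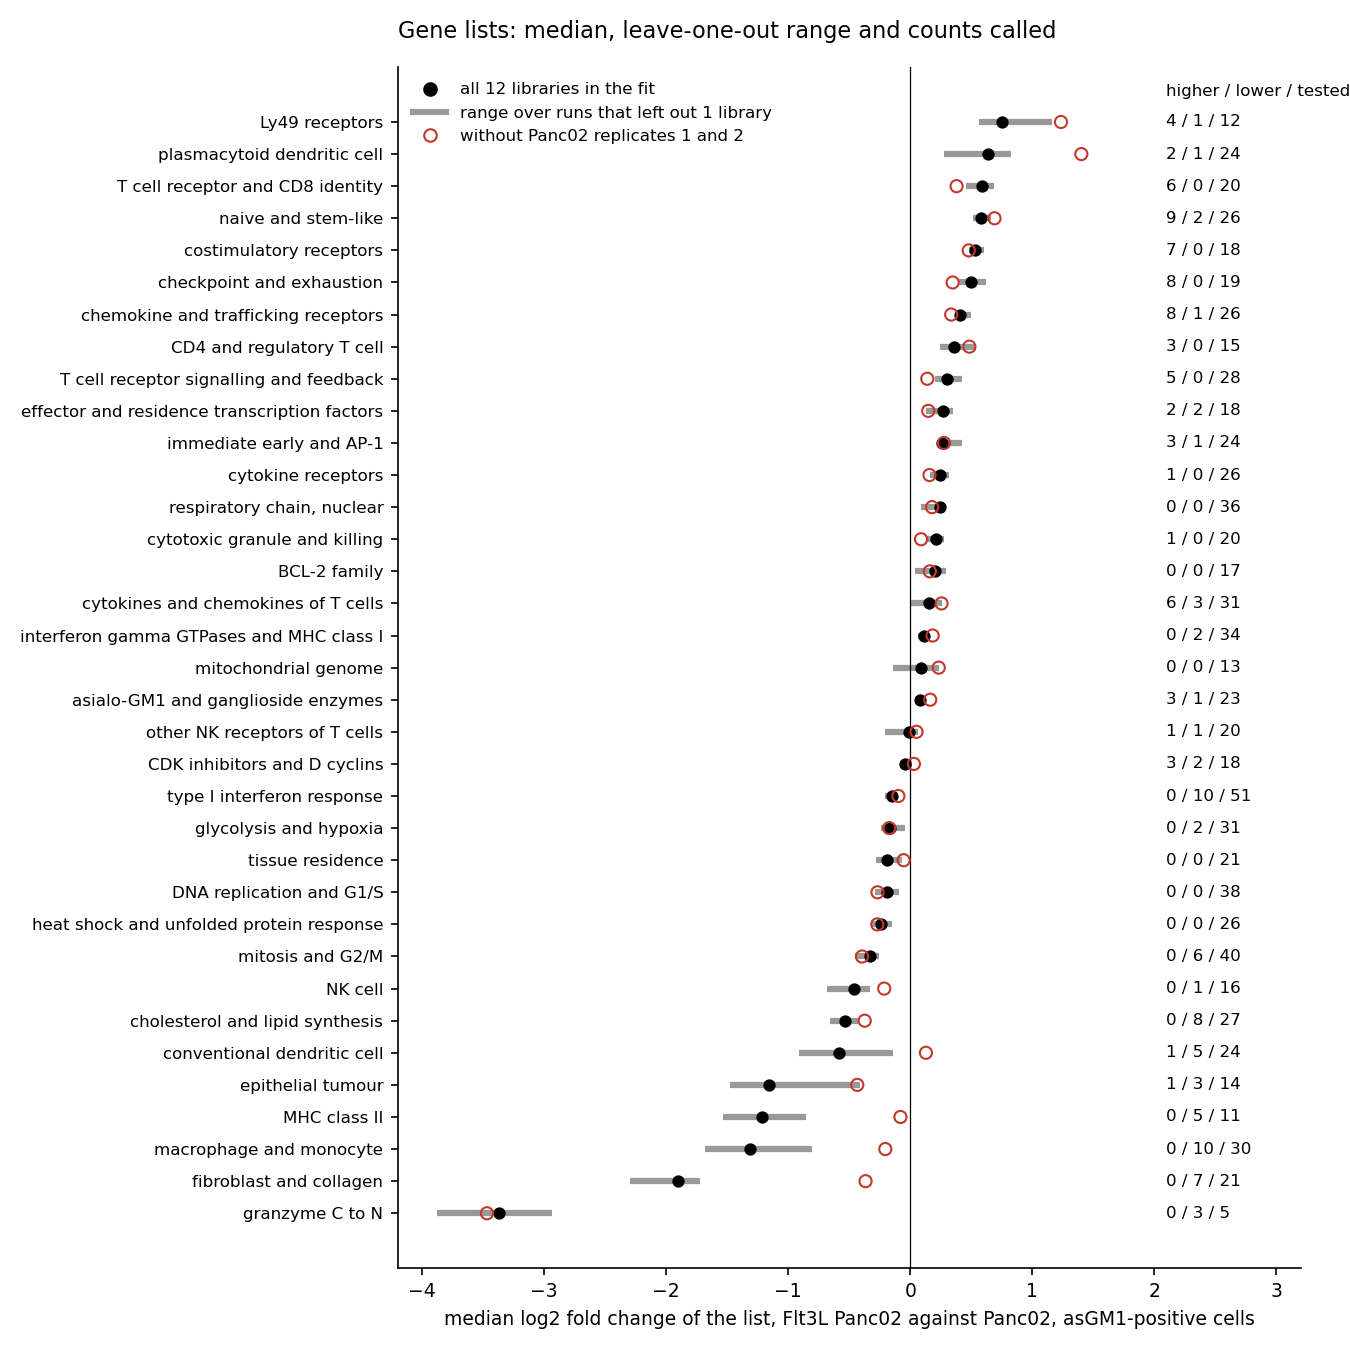
Median log2 fold change of 35 gene lists between Flt3L Panc02 and Panc02 asGM1-positive libraries with all 12 libraries in the fit (black), its range over runs that left out 1 library (grey bar) and its value without Panc02 replicates 1 and 2 (red ring); numbers at the right are genes called higher, called lower and tested. The macrophage, fibroblast and MHC class II medians move from -1.31, -1.90 and -1.21 to -0.20, -0.37 and -0.08, while the naive list goes from 0.58 to 0.69 and granzymes C to N from -3.37 to -3.47.

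The same tumour contrast in asGM1-negative cells called 756 genes (3.7%), 380 higher (1.86%) and 376 lower (1.84%). Of the genes called in asGM1-positive cells, 258 were called in both gates, 20.2% of those 1276 and 34.1% of those 756: 91 were higher in both, 148 lower in both and 19 opposite. Of the 1276, 1069 (83.8%) had the same sign in asGM1-negative cells, against 57.0% of all genes tested. The log2 fold changes of the gates had a Pearson correlation of 0.287 across all genes tested and 0.522 across 10342 genes of at least 5 CPM. Both are given as a description, since genes are not independent replicates. Klra6 had a log2 fold change of 1.84 in asGM1-positive and 1.87 in asGM1-negative cells, Gzmd of -3.59 and -3.67, and Kit of -2.32 and -2.37.

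The difference between gates was itself tested and was called for 75 genes (0.367%), 7 higher (0.0343%) and 68 lower (0.333%) in asGM1-positive cells, with 3030 at an unadjusted p under 0.05. Of the 75, 65 had a log2 fold change below 0 in asGM1-positive and above 0 in asGM1-negative cells, and 41 were also called in asGM1-positive cells. Bcl2, the survival gene, had -0.35 in asGM1-positive and 0.82 in asGM1-negative cells, a difference of -1.17 (adjusted p = 0.0238, edgeR). It was at 104, 101 and 108 CPM in the Panc02 asGM1-positive libraries and 90.7, 81.4 and 73.7 CPM in the Flt3L Panc02 libraries. The difference was not called for Tcf7, Gzmc, Gzmd, Tox, Mki67, Hmgcs1 or Ifit1 (adjusted p from 0.286 to 0.983), which does not show that the gates respond alike. Same-numbered libraries of the gates correlated in their deviations from the group means at 0.397, 0.36 and 0.367 for Panc02 and 0.0783, 0.554 and -0.0484 for Flt3L Panc02 tumours. With that number as a block within each tumour type, 204 differences were called, 39 higher and 165 lower, among them 69 of the 75. Without single libraries the count of 75 moved each time. Without asGM1-negative Panc02 libraries 1, 2 and 3 in turn it was 27, 1 and 2, and without asGM1-negative Flt3L Panc02 libraries 1, 2 and 3 it was 1, 4 and 39. Without asGM1-positive Panc02 libraries 1, 2 and 3 it was 43, 3 and 257, and without asGM1-positive Flt3L Panc02 libraries 1, 2 and 3 it was 41, 6 and 4.

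**Figure D5:**
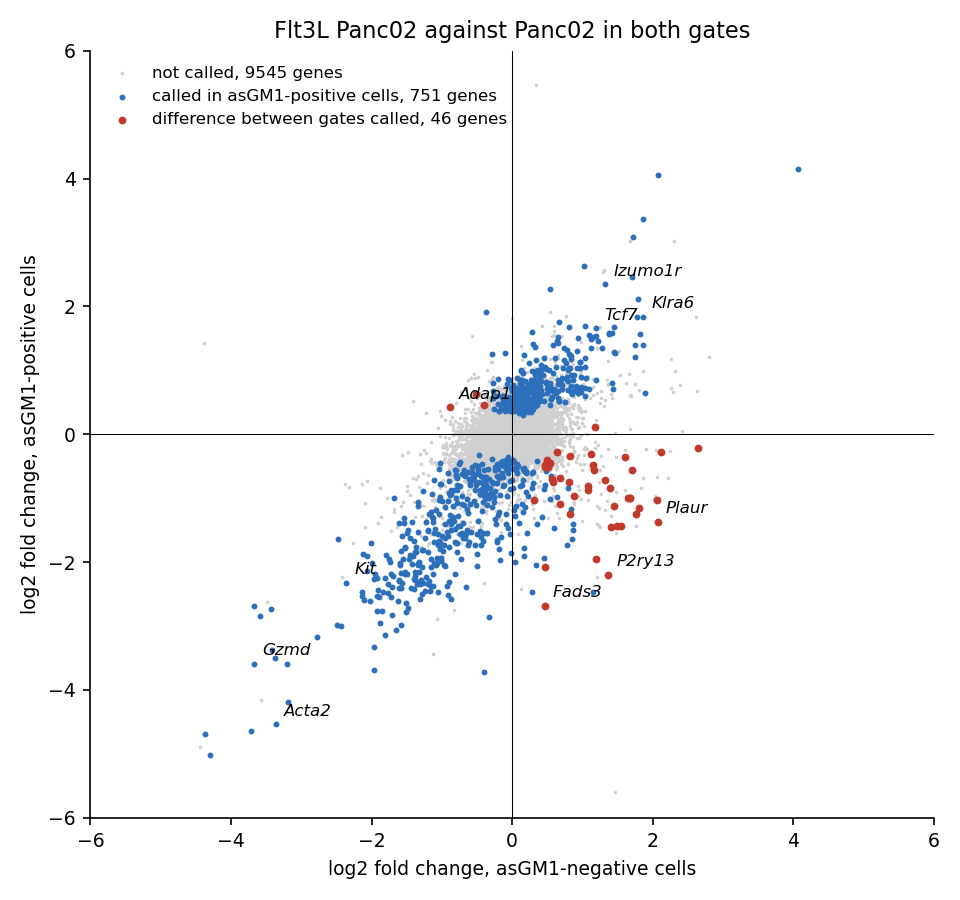
Log2 fold change between Flt3L Panc02 and Panc02 tumours in asGM1-negative cells (horizontal) and asGM1-positive cells (vertical) for genes of at least 5 CPM: 9545 not called (grey), 751 called in asGM1-positive cells (blue) and 46 whose difference between gates was called (red). Most blue points lie in the quadrants where the gates share a sign, and most red points lie at lower right.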

How the data were processed

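CD8+ cells were sorted from tumours, RNA was extracted with TRIzol and poly(A) libraries were sequenced, per the labels' protocols, which list the kits TruSeq mRNA and SMARTer Ultra low input. The authors used HISAT2, StringTie and the build mm39, per the submitters' processing notes, with no version or strandedness stated there. The table the authors deposited holds whole-number estimated counts per gene and library, not normalized. Their small values step by about 2.71 counts per fragment, so totals of 98663008 to 102896605 overstate the fragments behind a value, and levels under 3 fragments (0.08 CPM) are not read. Counts were tested as deposited with edgeR 4.0.16 in R 4.3.3 (TMM scaling, filterByExpr, quasi-likelihood test, 4 groups of 3 libraries, Benjamini-Hochberg adjusted p under 0.05, no minimum fold), and CPM uses TMM-scaled totals. Alternatives were other scalings and filters, DESeq2 1.42.0, limma 3.58.1 (voom with quality weights), a replicate block, the 6 libraries alone and each library left out. A scale on T cell identity genes, a fit without Panc02 libraries 1 and 2 and a block that pairs the gates within a tumour type were chosen after seeing the data.

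Named genes were the called genes of at least 5 CPM without overlap that changed most, up to 10 each way (no receptor segments, ribosomal, mitochondrial or unnamed genes), up to 4 called members of each of 41 lists by p, up to 5 per direction for the difference between gates, and a panel of 44 genes. Other genes were named after their values were seen. The comparison, the lists and the panel were chosen with earlier results of these data known. Promoters came from RefSeq, GRCm38.p6, by gene symbol, and no coordinates were carried between builds. Figures were drawn with matplotlib 3.10.9. Some genes that the rule names are not reported here.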

Additional observations from a re-analysis of the deposited data

Results flagged for a closer look

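The tumour effect differed between the asGM1-positive and asGM1-negative gates, by the test of the difference itself, for 75 genes, most of them lower in asGM1-positive and higher in asGM1-negative cells. Plaur, the urokinase receptor of myeloid cells, had log2 fold changes of -1.37 and 2.07, a difference of -3.44 (adjusted p = 0.00553, edgeR). P2ry13, a nucleotide receptor of myeloid cells, had -2.20 and 1.37, a difference of -3.56. Cd300lf, an inhibitory receptor of myeloid cells, had -1.95 and 1.2, a difference of -3.15. Lefty1, a TGF-beta family antagonist, had -1.03 and 2.06, a difference of -3.09. Fads3, a fatty acid desaturase family gene, had -2.68 and 0.46, a difference of -3.14. Pltp, a phospholipid transfer protein gene, had -1.43 and 1.49, a difference of -2.93.

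The opposite order was seen for Adap1, at 0.43 and -0.88 (a difference of 1.30), Cdkn2c, a CDK inhibitor gene, at 0.63 and -0.52 (1.14), and Anxa6, at 0.46 and -0.40 (0.86, adjusted p = 0.0459, edgeR). Anxa6 had -0.07 in asGM1-positive cells on the T cell identity scale. The macrophage and MHC class II sums were, of the 6 asGM1-positive libraries, highest in Panc02 libraries 1 and 2, and their part in the differences of the myeloid genes was not tested.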

How the results depend on the processing

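The 1276 calls in asGM1-positive cells became 691 with no filter, 2979 with DESeq2, 3120 with limma-voom, 1 in the 6 libraries alone, 7172 on the T cell identity scale and 19 without Panc02 libraries 1 and 2, where the lone library left is assumed to vary like the other groups; leaving out 1 library gave 215 to 1737. Without the genes of other cell types the 1232 calls became 667, 2899, 3044, 1, 7064 and 15 in the same order, and 201 to 1661. The 139 calls among listed genes became 87, 270, 300, 0 (352 at an unadjusted p under 0.05), 406 and 6, and 34 to 197. The 75 differences between gates became 40 with no filter, 137 with a stricter filter, 862 with DESeq2, 786 with limma-voom, 157 on the T cell identity scale and 6 without Panc02 libraries 1 and 2, and 1 to 257 with 1 library left out. The T cell identity scale moved the median of all genes from -0.033 to -0.569, so genes with a smaller rise change sign by its construction: Lck reversed to -0.011, Il10rb to -0.0824, Ubash3a to -0.14, St6galnac4 to -0.11 and Anxa6 to -0.0722, where Lck is itself one of the genes that set the scale. The cause of the other moves was not tested.

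Same-numbered asGM1-positive libraries of the 2 tumour types correlated at 0.0213, -0.0545 and 0.0554 in their deviations over 10342 genes, so the numbers were not taken as pairs there. With the replicate block 1490 genes were called, and 135 differences between gates. Between the gates of a tumour type every Panc02 pair correlated above 0.1 and 1 of 3 Flt3L Panc02 pairs did, and a replicate block within tumour type gave 204 differences.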

Other observations

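Survival, mitochondrial and stress genes gave no call in asGM1-positive cells by edgeR. None of 17 BCL-2 family genes, 13 genes of the mitochondrial genome and 26 heat shock and unfolded protein response genes passed. Bcl2l11, which encodes the death factor BIM, was at 93.9, 83.0 and 107 CPM in Panc02 and 120, 137 and 107 CPM in Flt3L Panc02 tumours (0.36 ± 0.12, adjusted p = 0.0878), and Mcl1, which promotes survival, was 0.27 ± 0.14 on the log2 scale. Hspa1a, an inducible chaperone gene, was highest in Panc02 library 3, at 174 CPM against 47.8 and 52.9 CPM in the other Panc02 libraries.

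Of 26 cytokine receptor genes 1 was called (3.85% against 6.25% of all genes). Il10rb, a subunit of the interleukin 10 receptor, rose from 107, 90.1 and 109 CPM to 129, 140 and 153 CPM (0.46 ± 0.11, adjusted p = 0.0327, edgeR). Il2rb was at 1824, 2266 and 2729 CPM against 3135, 3405 and 2788 CPM and was not called (adjusted p = 0.158). Of genes of CD4+ and regulatory T cells, Izumo1r, Cd40lg and Cd4 rose among 15 tested (20% called against 6.25% of all genes). None of 11 neutrophil, 14 endothelial and 6 erythroid genes was called, and of 12 mast cell, basophil and eosinophil genes Kit fell, with Cpa3, a mast cell protease gene, at 6.07, 1.38 and 1.09 CPM against 3.39, 3.06 and 1.75 CPM.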
